A study of Arabidopsis thaliana with 12 samples.

Results

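Leaves of Arabidopsis thaliana double mutant ssi2 sid2 were compared with leaves of wild type plants. All 22746 probe sets other than controls, of the 22810 on the Affymetrix array, were taken, and 6 of the 12 arrays of the study carry the comparison, 3 of each genotype. The other 6 arrays, 3 of the single mutant ssi2 and 3 of the double mutant ssi2 act1, entered the fit to give a shared estimate of the spread and supply values set beside those of ssi2 sid2. The labels give all plants the Col-0 background, an age of 4 weeks, and growth at 22 °C, 65% relative humidity and a photoperiod of 14 h. Wild type and ssi2 sid2 differ by both mutations. The labels name no mutant allele, and sid2 plants without ssi2 were not analysed here, so ssi2 and sid2 cannot be told apart in a difference from wild type, while a difference between ssi2 sid2 and ssi2 is one between plants that share ssi2. The replicates are called biological in the titles, with no word on separate sowings or harvests, so the p-values reflect the spread among these arrays.

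SSI2 encodes the plastid stearoyl-ACP desaturase, the enzyme that puts the first double bond into stearic acid and so makes oleic acid. Plants that lack it are known for low oleic acid, small stature, spontaneous lesions and defence genes that are on without a pathogen. SID2 encodes isochorismate synthase, through which Arabidopsis makes most of the salicylic acid (SA) of a defence response, and a sid2 mutation blocks that route. The comparison with wild type therefore describes leaves that carry ssi2 while that route of SA synthesis is blocked. Any change that sid2 makes alone is part of the difference. SSI2 and SID2 themselves were not analysed here, so the labels were not checked at the mutated genes.

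Signals on the arrays are intensities scaled by the authors, with a median of 95.7 to 158 per array. Levels below are log2(signal + 16), in which 4 is no signal, and differences are ssi2 sid2 minus wild type on that scale unless another is named, so that 1 is a doubling and the change of dim genes is understated. The labels do not say how the signals were summarised from the probes. A probe set was called where limma's adjusted p was under 0.05. The first principal component of all 12 arrays (31.7% of the variance) placed wild type at 51 to 57.4 and ssi2 sid2 at -53.9 to -26.1. Wild type replicate 2 stood apart on the third component (15.1%), at -98.8 against 22.6 and 36.2 for the other wild type arrays, and values without it are given beside results below. Among ssi2 sid2 arrays replicate 2 lay nearest to wild type on the first component, at -26.1 against -45.7 and -53.9. On the second component (17.5%) that array was at 7.38 against 59.1 and 60.4. There ssi2 replicate 3 stood apart, at -92.9 against -2.5 and -28.8 for the other ssi2 arrays. On the first component it was at -34.6 against -73.4 and -81. It enters the shared spread and every difference from ssi2. The control probe sets for the 3′ and 5′ ends of actin moved with the genotype: the ratio of 3′ to 5′ signal was 11.3, 11.2 and 5.98 in wild type and 1.05, 1.2 and 1.66 in ssi2 sid2. In ssi2 it was 1.9 to 2.66 and in ssi2 act1 2.15 to 2.81, so wild type stood apart from every mutant line. The same ratio for GAPDH was 1.56 to 2.15 in wild type and 1.39 to 1.47 in ssi2 sid2, and that for ubiquitin was 2.51 to 3.92 and 2.39 to 3.13, so the genotypes overlapped only for ubiquitin. The actin 3′ signal itself was 3858 to 5936 in wild type, 704.7 to 765.7 in ssi2 sid2 and 644.4 to 985.3 over the ssi2 and ssi2 act1 arrays. Differences of ssi2 and ssi2 act1 from wild type rest on the same wild type arrays as those of ssi2 sid2. These values move with the genotype compared, and their part in the results was not tested.

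In ssi2 sid2 823 probe sets (3.62%) were called higher than in wild type and 635 (2.79%) lower, together 6.41% of those tested, with a median difference of 1.88 among the higher and -1.64 among the lower. Over all probe sets the median difference was 0.01. After median centring of the arrays that median was -0.135 and the balance turned, with 612 probe sets higher and 790 lower, so that 43.7% of the calls were higher against 56.4% before. Without wild type replicate 2 there were 917 higher and 832 lower, and of the 20 alternatives tried the smallest counts, 269 higher and 192 lower, came without ssi2 sid2 replicate 3. Without wild type replicate 1 the counts were 439 and 329, without its replicate 3 they were 482 and 341, and without ssi2 sid2 replicate 1 they were 340 and 276. Leaving out ssi2 replicate 3 gave 1013 higher and 766 lower. Of the probe sets, those that the annotation ties to a single gene cover 13356 genes. Of these genes 404 were higher (3.02%) and 350 lower (2.62%), and these percentages are the background for the counts of gene groups below. Only 113 of the called genes have a symbol in the annotation used, so many of the largest differences below carry a locus number and no function.

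**Figure D1:**
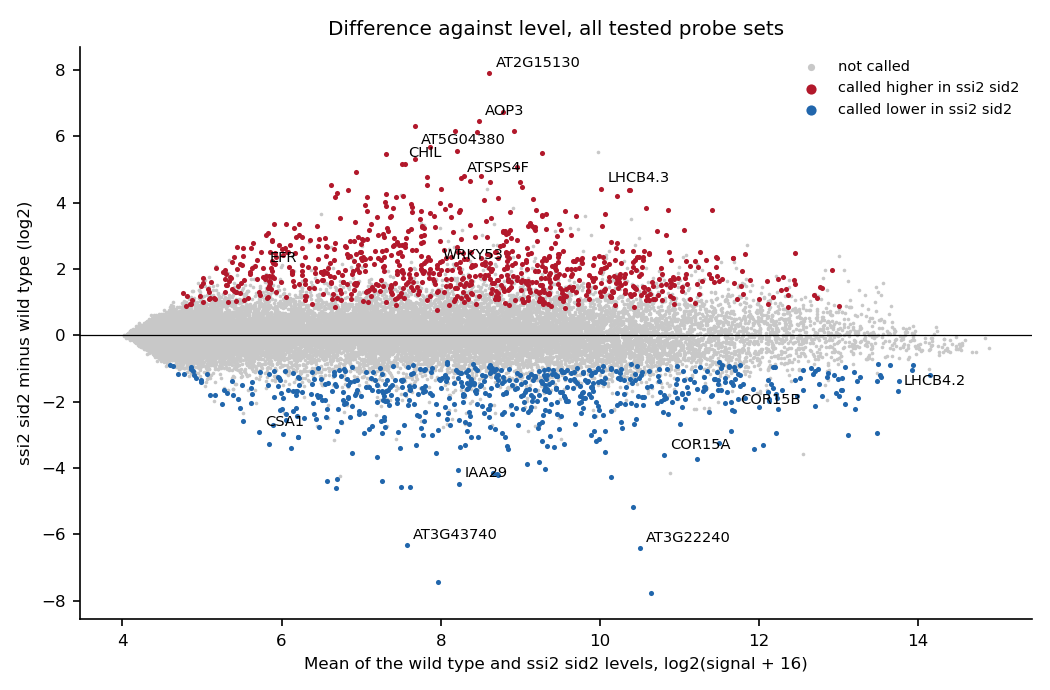
Difference between ssi2 sid2 and wild type on the log2 scale (vertical axis) against the mean of the levels in both genotypes, log2(signal + 16) (horizontal axis), for the 22746 probe sets, with red for the 823 called higher, blue for the 635 called lower and labels for genes named in the text. Calls lie across the whole range of levels, and dim probe sets at the left show small differences.

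Among genes that were bright in the higher genotype and did not overlap between genotypes, the highest difference was at AT2G15130, which had levels of 4.90, 4.68 and 4.38 in the wild type arrays and 13.54, 10.81 and 13.35 in ssi2 sid2. It was near the floor of the scale in wild type and bright in all 3 double mutant arrays, with a difference of 7.91 (SE 0.77, adjusted p = 0.000483). It was also higher than wild type in ssi2, by 9.03 (adjusted p = 5.99e-05), and in ssi2 act1, by 4.25 (adjusted p = 0.0168). AOP3, which encodes a dioxygenase that modifies the side chain of glucosinolates, the mustard oil precursors of the family, read 5.34, 5.26 and 5.13 in wild type and 11.48, 11.34 and 12.31 in ssi2 sid2. Its genotypes lay far apart, at 6.47 (SE 0.77, adjusted p = 0.00102), and the other lines were also above wild type, ssi2 by 5.76 (adjusted p = 0.000664) and ssi2 act1 by 4.34 (adjusted p = 0.0139). ATSPS4F, which encodes a sucrose-phosphate synthase, a step of sucrose synthesis, rose from 5.46, 6.33 and 5.84 to 9.90, 11.13 and 10.86, with no overlap and a difference of 4.75 (SE 0.62, adjusted p = 0.00185). The 15 highest genes ran from AT2G15130 down to AT3G48460 at 4.49 (adjusted p = 0.00763), and 12 of them have only a locus number. Among these 12, AT3G44450 and AT1G06000 lost their calls without ssi2 sid2 replicate 1 (adjusted p of 0.0625 and 0.0632) and without replicate 3 (0.0725 and 0.078). In both genes ssi2 sid2 replicate 2 was the lowest double mutant array: it read 9.40 and 8.22 where the other double mutant arrays were at 10.76 or above.

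By the same rule the lowest difference was at AT3G22240, with 14.41, 12.54 and 14.20 in wild type and 6.97, 8.05 and 6.86 in ssi2 sid2. It was bright in wild type and lower in each double mutant array, at -6.42 (SE 0.45, adjusted p = 0.0001), and it was also lower in ssi2, at -4.85 (adjusted p = 8.17e-05), but read 14.17, 14.58 and 14.52 in ssi2 act1, at 0.71 (adjusted p = 0.6). AT3G43740 was at 10.55, 10.91 and 10.73 in wild type and at 4.89, 4.132 and 4.23 in ssi2 sid2, close to the floor in each double mutant array, at -6.32 (SE 0.62, adjusted p = 0.000483). In contrast to AT3G22240 it was lower in both other lines as well, at -5.88 (adjusted p = 0.000156) in ssi2 and -4.97 (adjusted p = 0.00325) in ssi2 act1. Among the 15 lowest genes 3 have a symbol, the auxin response gene IAA29 and the cold and dehydration genes COR15A and AtLEA4-1, described below, and the smallest difference of the 15 was -3.27 (adjusted p = 0.00534) at AT1G80960. Probe sets without a single gene in the annotation went further: the lowest of them read 14.74, 14.24 and 14.59 in wild type and 6.61, 6.86 and 6.80 in ssi2 sid2, a difference of -7.77 (SE 0.76, adjusted p = 0.000483), and of 9233 such probe sets 416 were higher and 284 lower.

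Several genes of immune signalling were above wild type in ssi2 sid2. Of the 16 antimicrobial genes 0 were called higher, or 3 without wild type replicate 2. The difference between these groups was not tested. Of 15 measured genes of defence signalling 7 were higher and 1 was lower, with a median difference of 0.97 against -0.005 over all genes. This group was drawn after the values had been opened, so its count and median are a description. The 7 became 3 without ssi2 sid2 replicate 1, and 4 without wild type replicate 1 or 3, ssi2 act1 replicate 3, ssi2 sid2 replicate 2 or 3, or at a pseudocount of 1, while the 1 lower gene kept its call in each of these. EFR, the receptor kinase that recognises the bacterial elongation factor EF-Tu, read 4.70, 5.12 and 4.45 in wild type and 6.70, 6.57 and 7.06 in ssi2 sid2. Every double mutant array lay above every wild type array, by 2.02 (SE 0.34, adjusted p = 0.00546), and the call held in all 20 alternatives. WRKY53, a transcription factor of senescence and defence, went from 6.77, 7.35 and 6.56 to 8.72, 9.77 and 8.52, highest in ssi2 sid2 replicate 2, with a difference of 2.11 (SE 0.34, adjusted p = 0.00478). WRKY6, another factor of that family induced in senescence and infection, went from 4.37, 6.10 and 5.35 to 7.85, 9.0 and 7.37, again highest in replicate 2, at 2.8 (SE 0.47, adjusted p = 0.00557). SGT1A, a co-chaperone of resistance proteins, was higher by 1.38 (adjusted p = 0.013), with no call once wild type replicate 1 (0.0563) or ssi2 sid2 replicate 1 (0.0565) was left out.

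Of the genes for pattern-triggered immunity, the first layer of defence behind such receptors, 4 of 6 were higher and 0 lower, with a median of 1.19. These 4 genes are also counted as higher in defence signalling above, so the groups overlap. Beside EFR these were BIK1, a kinase that acts directly below the receptors, at 0.88 (adjusted p = 0.0448), and PUB22 and PUB23, ubiquitin ligases that damp the response, at 1.85 (adjusted p = 0.0353) and 1.5 (adjusted p = 0.0426). The wild type and ssi2 sid2 arrays did not overlap for any of these genes, and 24.9% of all genes have no such overlap. Their calls lay close to the threshold: under the 20 alternatives BIK1 kept its call in 5, PUB22 in 9 (it was not tested under 1) and PUB23 in 8. The count of 4 fell to 2 without wild type replicate 1 or 2, without ssi2 replicate 2, after quantile normalization or median centring and with only the 6 arrays compared, and to 1 without wild type replicate 3, ssi2 act1 replicate 3, or any 1 of the ssi2 sid2 arrays and at a pseudocount of 1. In those fits without 1 array that lost the call, the adjusted p was 0.0505 to 0.148 for BIK1, 0.0504 to 0.119 for PUB22 and 0.0606 to 0.132 for PUB23. PUB24, another ligase of the same family, was not called, at 0.89 (adjusted p = 0.105), and neither was WRKY22 at -0.23 (adjusted p = 0.83).

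The 1 defence signalling gene that fell was CSA1, which encodes a resistance protein of the TIR-NBS-LRR class. It read 7.32, 6.65 and 7.58 in wild type and 4.28, 4.14 and 4.36 in ssi2 sid2, at the floor in all 3 double mutant arrays, a difference of -2.92 (SE 0.31, adjusted p = 0.000653). It was at or near the floor in the other lines too, with 4.32, 4.43 and 5.19 in ssi2 and 4.35, 4.79 and 4.32 in ssi2 act1. The glutamate receptor-like channels, which carry calcium signals, had 3 of 8 genes higher: GLR2.7 at 1.58 (adjusted p = 0.0126), GLR1.4 at 1.36 (adjusted p = 0.0338) and GLR3.3 at 1.24 (adjusted p = 0.0291), while the median of the 8 was 0.56. That count fell to 0 without wild type replicate 1 or ssi2 sid2 replicate 3, and to 1 without wild type replicate 2 or 3, without ssi2 sid2 replicate 1 or at a pseudocount of 1. For GLR2.7 the adjusted p was 0.0544 without wild type replicate 1 and 0.0531 without ssi2 sid2 replicate 3. GLR1.4 lost its call without any 1 of the wild type arrays or ssi2 sid2 replicate 1 or 3 (0.0628 to 0.161), and GLR3.3 without any 1 of the wild type or ssi2 sid2 arrays (0.0576 to 0.0946). YLS5, a gene named for its rise in yellowing leaves, was higher, with 7.63, 7.97 and 7.77 in wild type and 10.04, 9.44 and 9.91 in ssi2 sid2, at 2.01 (SE 0.26, adjusted p = 0.00172). The single mutant lay higher still, with 11.26, 11.33 and 11.22 in ssi2, and ssi2 sid2 differed from it by -1.48 (adjusted p = 0.011).

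Of the genes of SA synthesis and signalling 1 of 6 was higher and 0 were lower, with a median of 0.85. The higher gene was WRKY53, which is also counted in defence signalling above. The comparison of ssi2 with the same wild type arrays called 4 of the 6 higher and 0 lower, where 9.12% of all genes were called, 4.93% higher and 4.19% lower. Counts of calls from separate tests do not compare the lines with each other. The direct test of ssi2 sid2 against ssi2 called 2 of the 6 lower and 0 higher, where 1.54% of all genes were lower. WRKY53 was not called there, at -1.27 (adjusted p = 0.0714). The isochorismate step itself is not among the 6. GRX480, a glutaredoxin gene that SA induces, read 5.63, 6.70 and 5.33 in wild type, 6.65, 7.10 and 6.11 in ssi2 sid2 and 9.01, 8.91 and 8.02 in ssi2. The double mutant overlapped wild type, at 0.74 (adjusted p = 0.364), and lay below every ssi2 array, at -2.03 (adjusted p = 0.0214). UGT76B1, a glucosyltransferase gene of the SA response, was close to the floor in ssi2 sid2 at 4.11, 4.127 and 4.17, against 6.54, 7.38 and 6.79 in ssi2 and 4.32, 6.04 and 4.24 in wild type. It differed from ssi2 by -2.77 (adjusted p = 0.00988) and not by the test from wild type, at -0.73 (adjusted p = 0.46). SAG101, which encodes a partner of the defence regulator EDS1, read 6.74, 6.92 and 6.22 in wild type and 7.76, 7.44 and 7.6 in ssi2 sid2 without overlap, yet missed the threshold at 0.97 (adjusted p = 0.0841). BSMT1, which encodes a methyltransferase of benzoic and salicylic acid, was at 2.1 (adjusted p = 0.0907), and it passed the test without ssi2 replicate 3 (0.0201).

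Several genes of pathogenesis-related and antimicrobial proteins were lower in ssi2 sid2 than in ssi2 and did not differ by the test from wild type. The direct test against ssi2 called 2 of 7 pathogenesis-related genes lower and 1 higher. Of 16 antimicrobial genes it called 4 lower and 1 higher, beside 1.54% lower and 1.44% higher of all genes. The groups share members, so a gene can enter both counts. OSM34, THI2.1 and ChiC, described next, were chosen after their values were seen. Of the 7 pathogenesis-related genes 0 were called against wild type, with 1 called without wild type replicate 2 (PDF1.4, a defensin gene, at an adjusted p of 0.0293). Values of PR1, PR2 and PR5 are not reported here. OSM34, an osmotin-like gene, read 4.46, 8.61 and 4.42 in wild type, 5.12, 4.40 and 4.90 in ssi2 sid2 and 10.69, 11.61 and 11.97 in ssi2. Apart from wild type replicate 2 the wild type and double mutant arrays were all near the floor, and the difference of ssi2 sid2 from ssi2 was -6.62 (adjusted p = 0.00249), beside -1.03 (adjusted p = 0.612) from wild type. THI2.1, a thionin gene, showed the same order, with 5.65, 5.22 and 5.94 in wild type, 6.24, 6.64 and 5.35 in ssi2 sid2 and 12.57, 11.24 and 9.97 in ssi2, a difference from ssi2 of -5.18 (adjusted p = 0.000487) and from wild type of 0.47 (adjusted p = 0.727). The chitinase gene ChiC was at 6.40, 6.02 and 5.58 in ssi2 sid2 against 8.73, 8.74 and 8.43 in ssi2, at -2.63 (adjusted p = 0.00193), and at -0.69 (adjusted p = 0.295) against wild type.

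Other members of the antimicrobial group did not follow that order. CHI, a chitinase gene, read 7.50, 10.16 and 6.66 in wild type, 11.98, 9.91 and 12.09 in ssi2 sid2 and 12.99, 13.18 and 13.08 in ssi2. Its difference from wild type was 3.22 (SE 1.03, adjusted p = 0.0907), and it passed the test without wild type replicate 2, at an adjusted p of 0.0221. The defensin gene PDF1.2b, a marker of jasmonate signalling, was at 9.67, 12.66 and 9.90 in wild type, 11.22, 12.59 and 9.76 in ssi2 sid2 and 8.68, 6.87 and 7.81 in ssi2, so that the double mutant overlapped wild type and exceeded every ssi2 array, by 3.41 (adjusted p = 0.0469). PDF1.2 and PDF1.2b are close copies, so their probe sets may share signal, and that of PDF1.2 was at 4.33 (adjusted p = 0.0646) against ssi2. JMT, which encodes the jasmonate methyltransferase, is counted with the jasmonate genes and not in this group. It read 7.34, 6.27 and 7.80 in ssi2 sid2 and 4.16, 4.14 and 4.2, the floor, in ssi2. The difference from ssi2 was 2.97 (adjusted p = 0.00888) and that from wild type, whose arrays read 5.50, 6.87 and 4.6, was 1.48 (adjusted p = 0.111), called without wild type replicate 2 (0.0112). Over all 16 antimicrobial genes 0 were higher and 1 was lower, LCR69, a defensin-like gene, at -1.84 (SE 0.28, adjusted p = 0.00393), and the median was 0.03. Without wild type replicate 2 the group had 3 higher genes, so the count of 0 rests on that array. In ssi2, against the same wild type arrays, 4 of the 16 were higher and 1 was lower.

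**Figure D2:**
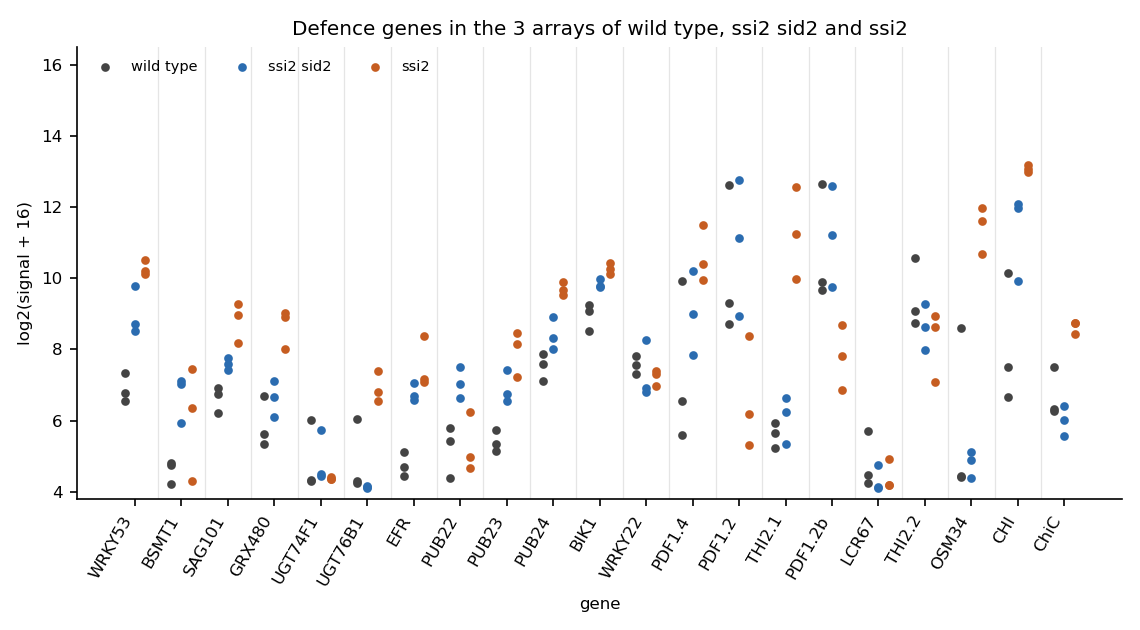
Levels, log2(signal + 16) (vertical axis), of the 21 measured genes of 4 defence lists (horizontal axis) in each of the 3 arrays of wild type (black), ssi2 sid2 (blue) and ssi2 (orange). For WRKY53 and EFR the blue points lie above the black ones, and for OSM34, THI2.1 and ChiC the blue points overlap the black ones or lie below them, and all lie under the orange ones.

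Genes of cold acclimation and dehydration were the group with the most lower genes of those described here: 6 of 9 fell and 1 rose, with a median of -2.27. These genes make proteins that protect membranes and enzymes as water leaves the cell, and many are switched on by cold, drought or abscisic acid. COR15A, which encodes a protective protein of the chloroplast, read 12.47, 13.10 and 12.24 in wild type and 8.53, 9.13 and 9.36 in ssi2 sid2, lower in every array, at -3.60 (SE 0.41, adjusted p = 0.00095). Its neighbour in the family, COR15B, read 12.81, 12.89 and 12.76 in wild type and 10.31, 10.49 and 10.85 in ssi2 sid2, a difference of -2.27 (SE 0.33, adjusted p = 0.00301). COR47, which encodes a dehydrin, a water-binding protein, went from 13.41, 14.16 and 13.50 to 10.28, 12.02 and 9.91. Here ssi2 sid2 replicate 2 lay between the other double mutant arrays and wild type, and the difference of -2.96 (SE 0.55, adjusted p = 0.00925) lost its call without replicate 3 (0.0528). AtLEA4-1, a late embryogenesis abundant protein gene, fell to the floor, from 6.87, 9.68 and 6.87 to 4.3, 4.51 and 4.48, at -3.38 (SE 0.70, adjusted p = 0.0154), a call lost without ssi2 sid2 replicate 1 (0.0602) or 3 (0.065).

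The dehydrin gene LTI30 read 10.08, 13.28 and 9.22 in wild type, where replicate 2 was far above the others, and 7.77, 8.06 and 7.19 in ssi2 sid2, at -3.19 (SE 0.84, adjusted p = 0.0439). It kept its call in 9 of 20 alternatives, and the adjusted p was 0.059 to 0.17 in the 7 fits without 1 array that lost it, those without wild type replicate 1, ssi2 replicate 2, ssi2 act1 replicate 2 or 3 and any 1 of the ssi2 sid2 arrays. XERICO, which encodes a RING protein that promotes abscisic acid accumulation, was lower, at -1.69 (adjusted p = 0.0143), a call lost without ssi2 sid2 replicate 1 (0.0588) or 3 (0.0792). The list's count of 6 lower genes was the same without wild type replicate 2 and after median centring, and it was 3 without ssi2 sid2 replicate 1, 2 without its replicate 3 and 3 with only the 6 arrays compared. STZ, a zinc finger repressor gene induced by cold, salt and other stress, rose against the trend of the group, with 7.43, 9.40 and 6.94 in wild type and 10.88, 11.94 and 10.44 in ssi2 sid2, at 3.16 (SE 0.61, adjusted p = 0.0109), a call lost with only the 6 arrays compared (0.0506). COR27, a cold gene that also follows the circadian clock, was not called, with 11.73, 10.89 and 11.25 in wild type and 8.60, 10.91 and 7.66 in ssi2 sid2, at -2.23 (adjusted p = 0.118). None of the 6 lower genes differed by the test between ssi2 sid2 and ssi2, with an adjusted p of 0.161 at LTI30 as the smallest.

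**Figure D3:**
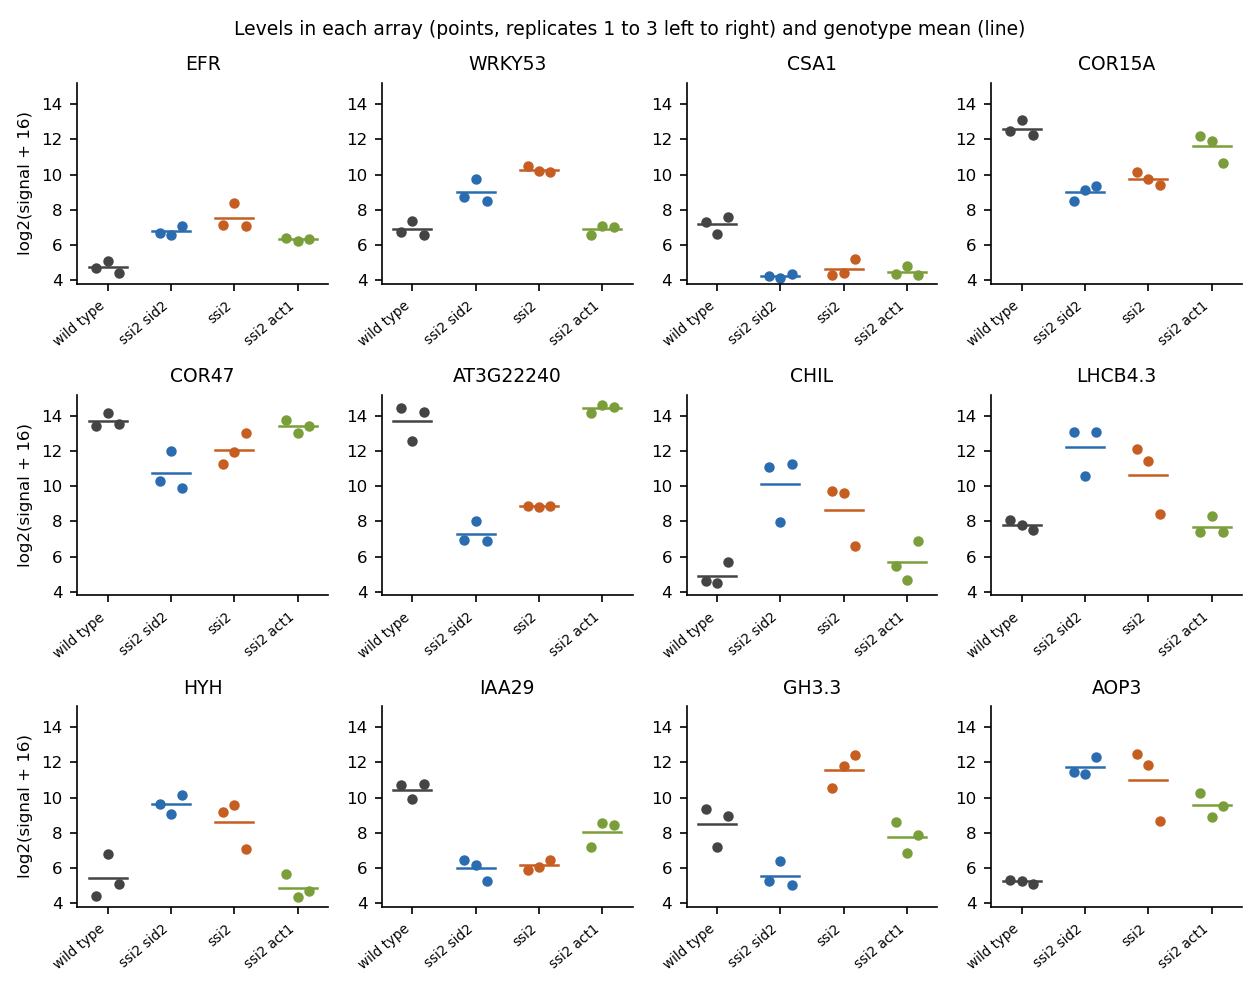
Levels, log2(signal + 16) (vertical axis), of 12 genes in every array (points) of the 4 genotypes (horizontal axis), with the genotype mean as a line. COR15A and IAA29 are lower in all 3 ssi2 sid2 arrays than in wild type, EFR and AOP3 are higher, and the middle ssi2 sid2 point, replicate 2, lies nearer to wild type for CHIL and LHCB4.3.

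Genes of flavonoid synthesis, which gives leaves their sunscreen pigments, were higher in part: 3 of 10 rose and 0 fell, with a median of 1.39. CHIL, a chalcone isomerase-like gene that raises flavonoid output, read 4.6, 4.49 and 5.69 in wild type and 11.09, 7.99 and 11.24 in ssi2 sid2. Replicate 2 reached less than the other double mutant arrays, and the difference was 5.18 (SE 0.98, adjusted p = 0.0101), with the call lost without ssi2 sid2 replicate 1 (0.0509) or 3 (0.0584). UGT78D2, which encodes a glucosyltransferase of flavonols and anthocyanins, went from 7.01, 7.64 and 7.06 to 10.86, 9.36 and 10.91, at 3.14 (SE 0.56, adjusted p = 0.00771). HYH, also counted among the 3, encodes a bZIP transcription factor of light signalling close to HY5 and not an enzyme of the pathway. It went from 4.41, 6.80 and 5.08 to 9.65, 9.10 and 10.15, at 4.2 (SE 0.70, adjusted p = 0.00555). UGT78D1, a flavonol rhamnosyltransferase gene, missed the threshold at 2.72 (adjusted p = 0.0589), and DFR, of anthocyanin synthesis, was at 1.02 (adjusted p = 0.35). Without ssi2 sid2 replicate 2, the array nearest to wild type, 6 of the 10 were called higher.

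Genes of the light-harvesting antenna moved in opposite directions. LHCB4.3 and LHCB4.2 encode forms of the same antenna protein of photosystem II, CP29. LHCB4.3, whose level follows light, read 8.06, 7.81 and 7.54 in wild type and 13.06, 10.58 and 13.05 in ssi2 sid2, higher by 4.42 (SE 0.86, adjusted p = 0.0111), with the call lost without ssi2 sid2 replicate 1 (0.0542) or 3 (0.0634). LHCB4.2 was among the brightest genes in wild type at 14.87, 14.26 and 14.64 and read 13.17, 12.56 and 12.96 in ssi2 sid2, lower, at -1.69 (SE 0.30, adjusted p = 0.00757), and called in all 20 alternatives. LHCB4.1, the other form measured, was at -0.44 (adjusted p = 0.452). Of all 18 nuclear genes of the photosystems and electron transport those were the calls, 1 higher and 1 lower, with a median of -0.23. Without ssi2 sid2 replicate 1 or 3 there were 0 higher genes among them, without wild type replicate 3 there were 3 and without ssi2 replicate 3 there were 2. In the Calvin cycle SBPASE, which encodes sedoheptulose-bisphosphatase, read 12.38, 10.77 and 12.62 in wild type and 13.92, 13.74 and 14.05 in ssi2 sid2, at 1.98 (adjusted p = 0.0391). Its lowest wild type array was replicate 2, and the call was lost without that array (0.0789), and also without wild type replicate 1, ssi2 replicate 2, ssi2 act1 replicate 3 or each of the ssi2 sid2 arrays alone (0.055 to 0.146 over these 7 fits). RCA and PRK, further genes of the cycle, were at 1.3 (adjusted p = 0.197) and 0.85 (adjusted p = 0.319).

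Of 8 genes of chlorophyll and tetrapyrrole synthesis 0 were called. PORB, which encodes a light-dependent step of chlorophyll synthesis, read 13.47, 11.52 and 13.26 in wild type and 10.51, 11.50 and 10.44 in ssi2 sid2, at -1.93 (adjusted p = 0.0667), and it was called lower once wild type replicate 2 (0.0117) was left out, and once ssi2 replicate 3 was (0.0311). GI, a clock gene that peaks late in the day, read 10.48, 8.98 and 10.08 in wild type and 6.61, 8.97 and 6.95 in ssi2 sid2, where the replicate 2 arrays of the genotypes were close to each other, at -2.34 (adjusted p = 0.124), called lower without ssi2 replicate 3 (0.0486). Several genes described here, GI, HYH, COR27 and LHCB4.3 among them, are known to vary over the day, and the labels give no hour of harvest. Its part in these values was not tested.

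Genes of carbohydrate breakdown and transport gave 1 higher and 1 lower of 14, with a median of -0.07. AMY1, which encodes a secreted alpha-amylase, went from 5.39, 6.59 and 5.12 in wild type to 10.51, 7.83 and 10.38 in ssi2 sid2, with replicate 2 well below the other double mutant arrays but above wild type, at 3.88 (SE 0.64, adjusted p = 0.00525). The sugar transporter gene SWEET4 went from 8.4, 11.06 and 8.92 to 6.80, 6.46 and 7.04, at -2.69 (SE 0.57, adjusted p = 0.0162), a call lost without ssi2 sid2 replicate 1 (0.0575) or 3 (0.0562). Without wild type replicate 2 the list had 3 higher and 2 lower genes, without ssi2 replicate 3 or ssi2 sid2 replicate 2 it had 2 higher, and without ssi2 sid2 replicate 1 or 3 it had 0 lower. Of the other SWEET genes SWEET2 was at 2.54 (adjusted p = 0.0584), and SAG29, a senescence-associated transporter of the family, differed from ssi2 by -2.45 (adjusted p = 0.0312) but from wild type by -0.11 (adjusted p = 0.956).

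Auxin response genes were lower where they were called, with 1 exception. Of 22 auxin genes, most of them of the GH3, Aux/IAA and YUCCA families, which conjugate auxin, relay its signal and make it, 4 were lower and 1 was higher, and the median was 0.00. The others of the 22 encode transcription factors of the response and auxin glucosyltransferases. IAA29, a repressor gene of the auxin response that is induced in shade and warmth, read 10.70, 9.92 and 10.77 in wild type and 6.49, 6.20 and 5.29 in ssi2 sid2, lower, at -4.47 (SE 0.42, adjusted p = 0.000483), and called in all 20 alternatives. IAA34, of the same family, was lower, at -1.71 (SE 0.26, adjusted p = 0.00372). GH3.3, which encodes an enzyme that ties auxin to amino acids, read 9.34, 7.22 and 8.94 in wild type, 5.25, 6.41 and 5.02 in ssi2 sid2 and 10.55, 11.80 and 12.44 in ssi2. The double mutant was thus below wild type, at -2.94 (SE 0.66, adjusted p = 0.0213), and the single mutant above it, at 3.09 (adjusted p = 0.0107), and ssi2 sid2 differed from ssi2 by -6.03 (adjusted p = 0.000666). The call against wild type was lost without wild type replicate 1 (0.089) or 3 (0.0755) and without ssi2 sid2 replicate 1 (0.0844) or 3 (0.105).

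WES1, another GH3 gene, was lower, at -2.56 (adjusted p = 0.0312), and its adjusted p rose to 0.0923, 0.0556 and 0.0755 without wild type replicates 1, 2 and 3 and to 0.118 and 0.138 without ssi2 sid2 replicates 1 and 3. The gene that was higher was IAGLU, which encodes an auxin glucosyltransferase, at 1.07 (adjusted p = 0.0296), and its adjusted p was 0.0781 and 0.107 without wild type replicates 1 and 3 and 0.059, 0.0951 and 0.1 without ssi2 sid2 replicates 1, 2 and 3. The 4 lower genes became 2 without wild type replicate 1 or 3 or ssi2 sid2 replicate 1 or 3, and 6 without wild type replicate 2 and ssi2 replicate 3 together. Without ssi2 replicate 3 there were 2 higher genes. Among 27 genes of xyloglucan and expansins, which loosen the cell wall in growth, 2 were lower and 0 higher, with a median of -0.07. EXPA16 read 9.01, 8.44 and 9.36 in wild type and 6.02, 6.94 and 6.55 in ssi2 sid2, at -2.43 (SE 0.32, adjusted p = 0.00188), and was lower in ssi2 and ssi2 act1 too (-2.60 and -2.03). EXLA1 was lower, at -1.72 (adjusted p = 0.0344), a call lost when wild type replicate 1 or 3 (0.114 and 0.0985) or an ssi2 sid2 array was left out (0.0606, 0.0933 and 0.138). The 2 lower genes became 5 without wild type replicate 2 and 1 when wild type replicate 1, wild type replicate 3 or an ssi2 sid2 array was left out.

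**Figure D4:**
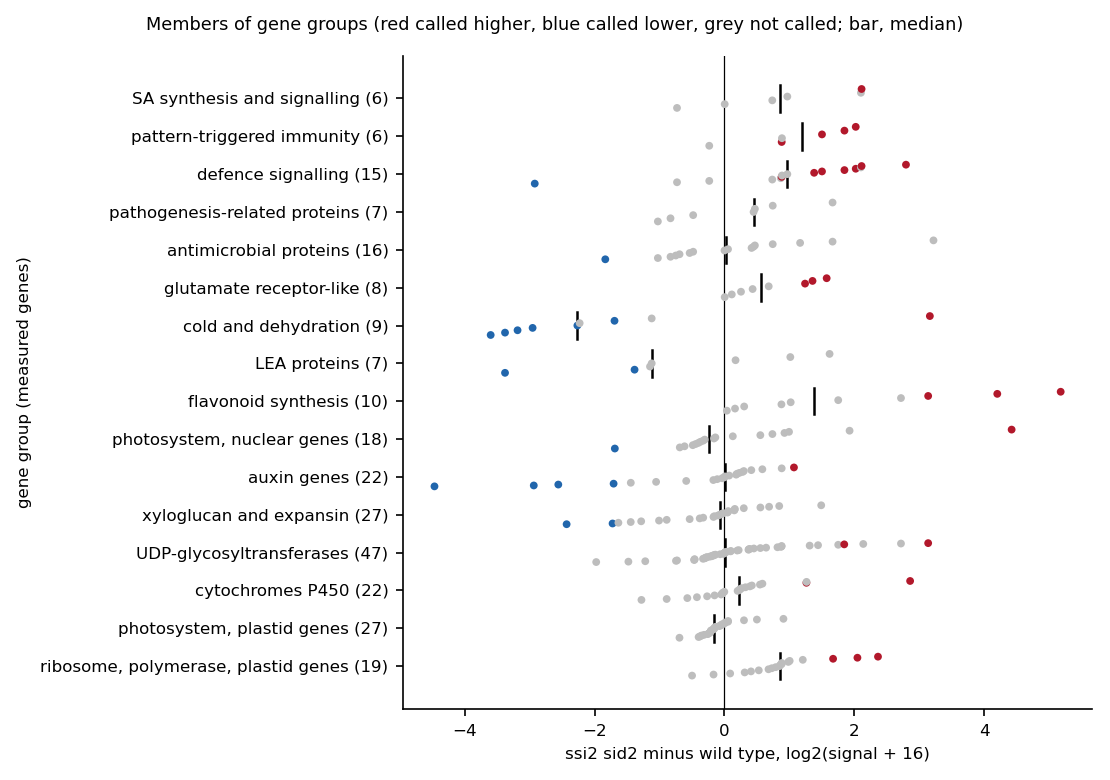
Difference between ssi2 sid2 and wild type on the log2 scale (horizontal axis) for each measured member (points) of 16 gene groups (vertical axis, number measured in brackets), with the group's median as a bar. Red points were called higher, blue points lower and grey points neither. The cold and dehydration genes lie at the left with 1 exception, STZ.

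AOP3 was the 1 called gene of 6 for glucosinolates and camalexin, and its relative AOP1 was at 0.48 (adjusted p = 0.59). Of 22 cytochromes P450 2 were higher, CYP71B36 from 4.2, 4.98 and 4.17 to 7.34, 7.35 and 7.24, at 2.86 (SE 0.38, adjusted p = 0.00187), and CYP71B29, at 1.26 (adjusted p = 0.0125), which lost its call without wild type replicate 3 (0.0504), and the median of the 22 was 0.22. Of 47 UDP-glycosyltransferases, which attach sugars to small molecules, 2 were higher, UGT78D2 and UGT73C1. UGT73C1 read 4.29, 4.66 and 4.19 in wild type and 6.26, 6.14 and 6.28 in ssi2 sid2, at 1.85 (adjusted p = 0.0392), and lost its call without wild type replicate 1 or 3, ssi2 act1 replicate 2 or 3, or any 1 of the ssi2 sid2 arrays (0.0501 to 0.138). The count of 2 was 1 without those arrays other than ssi2 sid2 replicate 2, 4 without replicate 2 of wild type or replicate 3 of ssi2, and 5 without ssi2 sid2 replicate 2. Of 13 glutathione S-transferases, which join glutathione to reactive compounds, 0 were called, with a median of 0.37. GSTU23 read 5.49, 5.30 and 5.83 in wild type and 6.72, 6.59 and 6.69 in ssi2 sid2 without overlap, at 1.13 (adjusted p = 0.128). It was called higher when replicate 3 of ssi2 was left out (0.0162) and in a fit of the 6 arrays compared (0.0395). Without replicate 2 of wild type or of ssi2 sid2 the group had 1 higher gene. AT3G13610, which carries the synonym F6'H1 for an enzyme of coumarin synthesis, lay between the other lines: it was at the floor in wild type (4.19, 4.18 and 4.21), at 7.68, 4.75 and 7.0 in ssi2 sid2 and at 10.62, 11.44 and 9.28 in ssi2. The difference from ssi2 was -3.97 (adjusted p = 0.00962) and that from wild type 2.28 (adjusted p = 0.0706), which passed the test without ssi2 sid2 replicate 2 (0.00913) or ssi2 replicate 3 (0.0466). MSRB9, which encodes a reductase that repairs oxidised methionine, went from 5.30, 5.75 and 4.2 to 9.99, 7.62 and 9.46, at 3.94 (SE 0.58, adjusted p = 0.00315), and was the 1 called gene of 5 of its kind.

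Of 15 acyl-ACP thioesterase and lipid genes 0 were higher and 1 was lower, with a median of -0.21. The lower gene was WSD1, which encodes a wax ester synthase, with 7.59, 7.24 and 7.71 in wild type and 4.22, 5.18 and 4.19 in ssi2 sid2, at -2.98 (SE 0.47, adjusted p = 0.00421). It was also lower in ssi2 and in ssi2 act1, at -2.32 (adjusted p = 0.00798) and -3.34 (adjusted p = 0.00607). FATB and FaTA, the thioesterases that release finished fatty acids from the plastid, were at -0.62 (adjusted p = 0.43) and -0.21 (adjusted p = 0.891), and FATB was called lower without wild type replicate 2 (0.0225). Without that array the group had 1 higher and 4 lower genes, and without ssi2 sid2 replicate 2 it had 2 lower. Of 8 genes of branched-chain amino acid breakdown 2 were lower and 0 higher, with a median of -1.20. The 2 were the electron transfer flavoprotein subunits ETFBETA and ETFALPHA. ETFBETA went from 9.84, 10.72 and 9.89 to 7.56, 8.63 and 7.56, at -2.23 (SE 0.37, adjusted p = 0.00537), and ETFALPHA was at -1.27 (adjusted p = 0.0132), lost without ssi2 sid2 replicate 3 (0.0689). IVD and MCCA, of the pathway itself, were at -1.49 (adjusted p = 0.497) and -1.50 (adjusted p = 0.483).

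ATPMEPCRB, which encodes a pectin methylesterase of the cell wall, went from 6.70, 4.51 and 5.93 in wild type to 7.97, 7.81 and 8.68 in ssi2 sid2, at 2.44 (SE 0.54, adjusted p = 0.0213), the 1 called gene of 6 for pectin and cellulose, and it lost its call without wild type replicate 3 (0.0531) or ssi2 sid2 replicate 1 (0.0625) or 3 (0.106). CML37, a calmodulin-like gene induced by wounding, was the 1 called gene of 9 for calcium signalling, at 2.48 (adjusted p = 0.0401), and kept its call in 7 of 20 alternatives, with an adjusted p of 0.0521 to 0.147 in the fits without 1 array that lost it, all but those without replicate 2 of wild type or replicate 2 or 3 of ssi2. Of 21 beta-glucosidases, which release active compounds from their glucosides, BGLU16 was lower, from 10.74, 10.68 and 10.81 to 9.07, 8.87 and 8.98, at -1.77 (SE 0.32, adjusted p = 0.00763). BGLU25 and BGLU43 were higher, at 1.38 (adjusted p = 0.0428) and 1.51 (adjusted p = 0.0335), and 1 or both lost the call in every fit without 1 array other than that without ssi2 replicate 3 or ssi2 act1 replicate 2, with an adjusted p of 0.052 to 0.164 for BGLU25 and 0.0508 to 0.149 for BGLU43. Of 9 iron regulators bHLH115, a factor of the iron deficiency response, was higher, at 1.03 (adjusted p = 0.0278), lost without any 1 of the wild type arrays or ssi2 sid2 replicate 1 or 3 (0.0532 to 0.135).

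Transcripts of the plastid genome were measured for 27 photosystem, 10 ndh and 19 ribosome or polymerase genes. Of the photosystem genes 0 were called, with a median of -0.16, and of the ndh genes, which encode a complex of cyclic electron flow, 0 were called. Of these ndhH read 7.51, 7.10 and 7.62 in wild type and 9.07, 9.26 and 9.47 in ssi2 sid2 without overlap, at 1.85 (adjusted p = 0.0603). It was called higher when ssi2 replicate 1 (0.046) or ssi2 act1 replicate 1 (0.0191) or 3 (0.0481) was left out. The same held in a fit of the 6 arrays compared (0.0111), after median centring (0.0376) and with the filter on dim probe sets (0.0402). Of the ribosome and polymerase genes 3 were higher and 0 lower, with a median of 0.85. The small-subunit genes rps3 and rps16 were higher without overlap, rps3 going from 10.47, 9.93 and 10.22 to 11.90, 12.20 and 12.66, at 2.05 (adjusted p = 0.0126), and rps16 from 8.07, 7.75 and 7.80 to 9.47, 9.12 and 10.04, at 1.67 (adjusted p = 0.0163). The large-subunit gene rpl22 was higher too, at 2.37 (adjusted p = 0.0463), and kept its call in 6 of 20 alternatives, with an adjusted p of 0.051 to 0.192 in the fits without 1 array that lost it, all but those without ssi2 replicate 1 or 3 or ssi2 act1 replicate 1. The count fell to 1 without wild type replicate 3 or ssi2 sid2 replicate 1 and to 0 without ssi2 sid2 replicate 3, where the adjusted p of rps3 and rps16 was 0.0713 and 0.0895. The call of rps16 was also lost without wild type replicate 3 (0.0557) or ssi2 sid2 replicate 1 (0.056). The ssi2 act1 arrays read 12.56, 11.80 and 11.19 for rps3, overlapping ssi2 sid2, and rps16 differed between ssi2 sid2 and ssi2, at 2.48 (adjusted p = 0.0035). Of 16 mitochondria-encoded genes 2 were lower, nad2 at -1.17 (adjusted p = 0.0471) and nad5 at -1.40 (adjusted p = 0.0475). The genotypes overlapped for nad5, its other probe set was at -0.85 (adjusted p = 0.0792), and the count of 2 was 1 when ssi2 replicate 1, replicate 2 of ssi2 act1 or replicate 2 of ssi2 sid2 was left out and 0 without wild type replicate 1 or 3, ssi2 replicate 2, ssi2 act1 replicate 1 or 3, or ssi2 sid2 replicate 1 or 3.

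The direct test between ssi2 sid2 and ssi2, which share the ssi2 mutation, asks which differences from wild type have another size in the single mutant. It called 2.98% of all genes, 192 higher (1.44%) and 206 lower (1.54%) in ssi2 sid2. Of the 404 genes higher than wild type 54 were also higher than ssi2, 20 were lower than ssi2 and 330 (81.7%) had no call. Of the 350 lower genes 9 were also lower than ssi2, 2 were higher and 339 (96.9%) had no call. The direct test called 322 probe sets higher (1.42%) and 389 lower (1.71%), together 3.13%, and this fell to 109 and 124 without ssi2 sid2 replicate 3, to 114 and 162 without its replicate 1 and to 172 and 257 without ssi2 replicate 3, and rose to 505 and 621 without wild type replicate 2. A missing call does not show that the lines have equal levels. Both tests use the ssi2 sid2 arrays, so a high or low reading there enters both.

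Among genes above both wild type and ssi2, AT5G04380 was the highest, with 4.28, 4.85 and 4.41 in wild type, 8.25, 9.27 and 5.31 in ssi2 and 10.79, 10.65 and 11.07 in ssi2 sid2. The double mutant arrays were within 0.5 of each other and above every array of the other genotypes, by 6.32 (SE 0.75, adjusted p = 0.00102) against wild type and 3.22 (adjusted p = 0.0395) against ssi2. AT3G24460 was at 4.38, 4.32 and 4.34 in wild type, 5.80, 6.37 and 4.21 in ssi2 and 8.91, 8.71 and 9.05 in ssi2 sid2, a difference of 4.54 (SE 0.44, adjusted p = 0.000483) from wild type and of 3.43 (adjusted p = 0.00161) from ssi2. AT4G12830 showed no difference by the test between ssi2 and wild type, at -0.41 (adjusted p = 0.722), and was higher in ssi2 sid2, which read 10.72, 10.89 and 10.86, by 3.27 (adjusted p = 0.00584) against wild type and 3.68 (adjusted p = 0.00488) against ssi2. AT2G27420 was the other such gene named by the same rule, at 5.67 (adjusted p = 0.00301) and 3.71 (adjusted p = 0.0321). In all 4 of these genes ssi2 replicate 3 was the lowest ssi2 array, and for AT2G27420 the ssi2 arrays read 8.42, 7.78 and 4.78, for AT4G12830 7.59, 8.06 and 5.79.

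On the lower side AT1G50040 read 9.20, 8.68 and 9.23 in wild type, 8.68, 7.17 and 8.44 in ssi2 and 5.59, 5.54 and 4.96 in ssi2 sid2. Its difference was -3.68 (SE 0.44, adjusted p = 0.00114) from wild type and -2.73 (adjusted p = 0.00728) from ssi2. AT1G30250 was lower than wild type, at -3.26 (adjusted p = 0.00737), and than ssi2, at -2.79 (adjusted p = 0.0228). AT4G14020 was lower likewise, at -2.88 (adjusted p = 0.0082) and -2.60 (adjusted p = 0.0206). GH3.3, described above, was the other gene named by that rule. AT4G14020 was also lower in ssi2 act1, at -2.33 (adjusted p = 0.0478), and AT1G50040 and AT1G30250 were not called there, at 0.44 (adjusted p = 0.805) and 0.23 (adjusted p = 0.947).

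Markers of other cell types were few in the annotation used. Of the mesophyll markers 2 were measured, and both were bright in leaves of either genotype, LHCB4.1 and RCA. For roots, EXPA7 was dim at 5.22, 4.40 and 5.66 in wild type and 5.83, 5.70 and 5.81 in ssi2 sid2, at 0.69 (adjusted p = 0.258), and PYK10 was at 0.16 (adjusted p = 0.927). For guard cells SPCH, FMA and MUTE gave 0 calls of 3, and SPCH read 6.07, 4.71 and 5.94 in ssi2 sid2. For pollen TUA1 was at 0.12 (adjusted p = 0.902). On the epidermis list FDH was at -1.75 (adjusted p = 0.0841), called lower without wild type replicate 2 (0.0385) or ssi2 sid2 replicate 2 (0.0247). FDH was matched by its symbol alone, and whether it is the epidermal gene was not checked. TRY, which encodes a small MYB protein that spaces trichomes and was the 1 trichome marker measured, was higher, from 5.57, 5.60 and 4.94 in wild type to 9.50, 8.68 and 9.59 in ssi2 sid2, at 3.89 (SE 0.68, adjusted p = 0.00729). In whole leaves a change in the number of cells of a type and a change of RNA per cell cannot be told apart, and the part of trichomes in the other differences was not tested.

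Called genes lay near other genes called in the same direction somewhat more often than all genes did. Within 4 measured genes on either side along a chromosome, 26% of 400 higher genes had another higher gene, against 21.2% of all 13217 genes placed. For lower genes it was 27.5% of 346, against 18.4%. These shares are a description and were not tested.

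Many groups gave 0 calls. These included endoplasmic reticulum folding (14 genes, median 0.07), autophagy (10 genes, -0.70), subtilases (10 genes, 0.29), vacuolar processing enzymes (4 genes, 0.20), tetraspanins (15 genes, -0.22), family 9 endoglucanases (15 genes, -0.05), aldehyde dehydrogenases (8 genes, -0.17), histones (8 genes, -0.78), tubulins (7 genes, -0.55) and jasmonate and ethylene signalling (5 genes, 0.80). Over all probe sets limma gave 4555 unadjusted p-values under 0.05 (20%), against the 1458 calls after adjustment. Within these groups, large single differences that missed the threshold were HIS1-3, a linker histone gene induced by drought, at -3.12 (adjusted p = 0.129), ALDH7B4, an aldehyde dehydrogenase gene, at -2.18 (adjusted p = 0.124), and ATG8B, an autophagy gene, at -1.30 (adjusted p = 0.169). HIS1-3 and ALDH7B4 were called lower without ssi2 sid2 replicate 2 (0.0471 and 0.0304). Without wild type replicate 2 the tubulins had 5 lower genes. Among them TUB5 then had an adjusted p of 0.0288, and with all arrays it was at -1.01 (adjusted p = 0.437). Without that array the histones and tetraspanins had 1 lower gene each, and jasmonate and ethylene signalling had 2 higher genes. Leaving out ssi2 replicate 1 gave 1 lower tetraspanin, and ssi2 replicate 2 gave 1 lower histone. Leaving out ssi2 replicate 3 gave 1 lower aldehyde dehydrogenase and 1 higher gene of jasmonate and ethylene signalling. Leaving out ssi2 sid2 replicate 2 gave 1 higher gene of that last group.

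**Figure D5:**
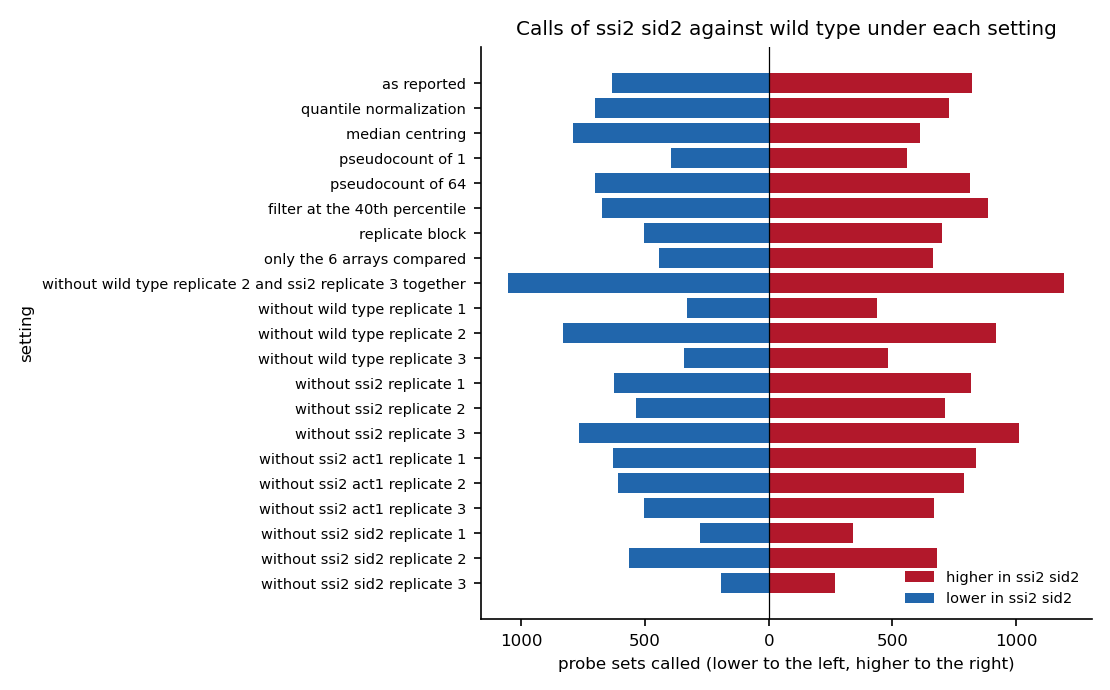
Number of probe sets (horizontal axis) called higher (red, to the right) and lower (blue, to the left) in ssi2 sid2 than in wild type under each setting (vertical axis). The counts range from 269 higher and 192 lower without ssi2 sid2 replicate 3 to 1194 higher and 1052 lower without wild type replicate 2 and ssi2 replicate 3 together.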

How the data were processed

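RNA of leaves was hybridised to 12 Affymetrix ATH1 arrays, 3 for each of 4 genotypes. The deposited values are linear intensities per probe set, which the authors made with Affymetrix Expression Console 1.0, per the submitters' processing notes. Neither the summary algorithm nor the scaling is given in the sources used here. The trimmed mean of each array, without the highest and lowest 2%, is 500 or 500.1.

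Of 22810 probe sets 64 controls were left out. The platform annotation gives 13513 probe sets 1 gene, 503 several and 8794 none. Of the 13513, 13436 matched a gene of the RefSeq table, which supplied symbols, and 77 kept their locus number. A gene with several probe sets took the one with the highest mean over the 12 arrays.

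From the deposited intensities log2(signal + 16) was computed, and limma 3.58.1 in R 4.3.3 fitted 4 genotype means to the 12 arrays (lmFit and eBayes, two-sided, Benjamini-Hochberg over 22746 probe sets). Alternatives were quantile normalization, median centring, pseudocounts of 1 and 64, a filter at the 40th percentile, the replicate number as a block, the 6 arrays compared alone, each of the 12 arrays left out in turn, and wild type replicate 2 with ssi2 replicate 3 left out. The fit was tested on simulated data.

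The comparison and the gene lists were chosen with earlier results of these data known, and the groups formed from annotated gene families were drawn after the values had been opened. The genes named are, in called genes whose higher genotype reads 64 or more in all 3 arrays with no overlap, the 15 highest and 15 lowest and the 4 highest and lowest that also differed from ssi2 in the same direction, and, of each list, up to 4 called members or else the member with the largest difference. AOP1, COR15B, COR27, COR47, ChiC, DFR, FMA, FaTA, GRX480, IAGLU, IVD, LHCB4.1, MCCA, MUTE, OSM34, PDF1.2, PDF1.2b, PRK, PUB24, PYK10, SAG101, SAG29, SGT1A, SWEET2, THI2.1, UGT76B1, UGT78D1, WRKY22 and XERICO lie outside that rule and were chosen after their values were seen. Arrays give no count of molecules, so their number limits the precision.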

Additional observations from a re-analysis of the deposited data

How the results depend on the processing

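Of 823 probe sets higher and 635 lower than wild type, the counts without 1 array ranged from 269 to 1013 and from 192 to 832. The count of lower probe sets was 396 at a pseudocount of 1 and 1052 without wild type replicate 2 and ssi2 replicate 3. The count against ssi2, 322 higher and 389 lower, was 175 and 204 at a pseudocount of 1, and ranged from 109 to 505 and from 124 to 621 without 1 array. The higher and lower counts were otherwise within 1.5 times those reported. Fewer arrays in a genotype enlarge the standard error by construction, and the cause of the other shifts was not tested. Median centring gave 43.7% of the calls as higher against 56.4%, with the median of all probe sets at -0.135. Replicate numbers are shared between genotypes, but the deviations of same-numbered wild type and ssi2 sid2 arrays correlated at -0.0149, 0.0891 and 0.226, and not every array correlated best with its own number. With the replicate number as a block there were 702 higher and 505 lower probe sets than in wild type, and 239 and 315 against ssi2, and 10 of 83 called genes among the 116 named by rule lost their calls. Of the 6 pattern-triggered immunity genes 2 were then higher, as BIK1 (adjusted p = 0.0672) and PUB22 (0.0601) lost theirs. Of these 83 genes 47 kept the call in every alternative that tested them (CYP71B36, IAA34, CSA1, WSD1 and AT1G80960 were not tested under 1 of the 20), and the largest losses, 34 and 31 genes, came without ssi2 sid2 replicates 3 and 1. Of 33 genes not called, TUA1, NAC014, psaA and SBT1.3 changed sign in some alternatives. Probe sets near background have little signal above the pseudocount, so their differences are compressed.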

Other observations

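Genes with a symbol that no group above holds, singled out after their values were seen and not tested as a set, included the following. Fes1B was lower, at -1.97 (adjusted p = 0.0315), and lost its call when wild type replicate 1 or 3 or ssi2 sid2 replicate 1 or 3 was left out (0.103 to 0.15). Hsp70-2, which encodes a chaperone, read 5.90, 5.48 and 5.54 in wild type and 10.22, 8.74 and 9.84 in ssi2 sid2, higher by 3.96 (SE 0.56, adjusted p = 0.00269). Cpn60beta2, a chaperonin subunit of the plastid, read 8.19, 6.5 and 8.36 and 11.24, 10.85 and 12.26, higher by 3.77 (SE 0.66, adjusted p = 0.00729), and SPPA, a thylakoid protease, was higher by 2.21 (adjusted p = 0.00431). In ascorbate synthesis GME was higher by 1.22 (SE 0.22, adjusted p = 0.00748) and kept its call in all 20 alternatives, and VTC4, at 1.46 (adjusted p = 0.0434), lost its call without any 1 of the wild type arrays, ssi2 replicate 2, ssi2 act1 replicate 2 or 3, or ssi2 sid2 replicate 1 or 3 (0.0526 to 0.177). SAL2, a phosphatase of the SAL1 family, read 5.76, 6.10 and 5.49 and 10.13, 8.26 and 10.12, higher by 3.72 (SE 0.44, adjusted p = 0.00102). None of Hsp70-2, Cpn60beta2, SPPA, GME and SAL2 overlapped between the genotypes, and 24.9% of all genes have no such overlap.

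Among lower genes with a symbol FHL, a homologue of the phytochrome A transport factor FHY1, read 8.12, 8.73 and 7.61 in wild type and 5.72, 5.85 and 5.79 in ssi2 sid2, at -2.37 (SE 0.30, adjusted p = 0.00157). ZW9 was lower than wild type, at -2.79 (adjusted p = 0.00095), and higher than ssi2, at 2.24 (adjusted p = 0.00308). The transcription factor genes NGA1 and NGA2, of leaf margin growth, were lower, at -1.17 (adjusted p = 0.0108) and -1.12 (adjusted p = 0.0275). NGA1 lost its call without ssi2 sid2 replicate 3 (0.0533), and NGA2 without any 1 of the wild type or ssi2 sid2 arrays (0.051 to 0.12).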
